A study of Bos taurus with 24 samples.

Results

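The changes described here are those of bovine muscle satellite cells that were cultured beside fibroblasts, from proliferation to 72 h after the switch to differentiation medium. The comparison rests on 8 of the 24 libraries of the series, chosen by their labels: 4 from cocultured cells in proliferation and 4 from cocultured cells at 72 h. A further 4 cocultured libraries at 24 h were used to date each change, and 8 monoculture libraries in proliferation and at 72 h were used for the closing comparison. All libraries came from WT cells of the musculus longissimus dorsi, labelled as muscle satellite cells. Satellite cells of 3 lines (passage 3) were mixed and plated with fibroblasts (passage 10) in plates with inserts of 0.4 µm pores, at 8000 cells per cm2. The cells grew for 5 days in High Glucose DMEM with 20% fetal bovine serum, and the medium was then replaced by the same DMEM with 10% horse serum. Because the 3 lines were mixed, differences between lines cannot be seen in these data. The labels do not say whether the monoculture wells held an insert, nor whether the 4 replicates of a group were separate cultures. The p-values below therefore measure the spread between these libraries, which may be technical.

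Satellite cells are the resident stem cells of skeletal muscle. Placed in medium with little growth factor, they normally leave the cell cycle, switch on the myogenic regulators of the MyoD family and fuse into myotubes that build sarcomeres. Fibroblasts deposit the collagen matrix of muscle and secrete growth factors and cytokines, and a porous insert lets such secreted factors pass while it keeps the cells of both kinds apart.

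The label could be checked against marker genes only in part. PAX7, MYF5, MYOD1, MYOG, MYMK, MYH3, MSTN and IGF2 were not among the symbols of the genes analysed here. Those genes were all 11937 listed, of which 893 had no symbol. Of the satellite cell identity list, 12 of 23 symbols were measured, with PAX3 and NCAM1 among them. Of the list of sarcomere genes, 16 of 53 were measured. Collagen genes and PDGFRA, which fibroblasts and fibro-adipogenic progenitors (FAPs, mesenchymal cells of muscle) express, were measured in every library. The same holds for every gene analysed here, so their presence alone cannot check the label. In CPM, the unit defined below, the 21 collagen genes summed to 99250 to 101600 in coculture proliferation. At 72 h of coculture the sum was 155000 to 160500. Whether cells other than satellite cells contributed to these levels was not tested. RNA from bulk cultures cannot tell a change in the number of cells of a kind from a change in RNA per cell.

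Library totals ran from 11541988 to 34957625 counts, and every gene listed had at least 6 counts in every library used. The first principal component of the 12 coculture libraries held 62.7% of the variance and placed proliferation, 24 h and 72 h in that order. Nuclear ribosomal RNA took 2.24% of the counts in 72 h replicate 1 and 4.07% in 24 h replicate 2, against at most 1.07% in the other coculture libraries. Library names placed the coculture libraries of proliferation in sequencing lane 6, those of 72 h in lane 7, and those of 24 h in both lanes. All monoculture libraries were in lane 6, so the comparison of coculture with monoculture at 72 h also runs across lanes. Lane and time can be told apart only through the coculture 24 h group. Where a lane term or library sizes alone ended the call of a net change named here, or moved its value or a list's count of net calls by over 1.5 times, the value under that setting is given beside it.

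Levels are in CPM, a gene's counts per 1000000 counts of its library, after scaling for library composition. The net change is the log2 fold change of 72 h over proliferation, given with its standard error, and a gene was called where its adjusted p was below 0.05. Among 11937 genes, 7203 (60.3%) were called, of which 3623 (30.4%) were higher at 72 h and 3580 (30.0%) lower. Called changes had a median size of 0.40 on the log2 scale. Changes of at least 2-fold were called in 523 genes upward (4.38%) and 343 downward (2.87%). In 3241 genes (27.2%) the 4 libraries of 72 h all lay above the 4 of proliferation, and in 3269 (27.4%) all lay below. Lack of overlap, given below for single genes, was thus common among all genes. With library sizes alone and no composition scaling, the median change of all genes moved from 0.0074 to -0.11, and the calls split into 2347 higher and 4894 lower. With a lane term, 2145 were called higher and 2223 lower. Of the 866 genes called with changes of at least 2-fold, 804 kept their call and direction with the lane term.

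The 24 h group divided each net change into a first step, from proliferation to 24 h, and a second step, from 24 h to 72 h. The first step had 5159 called genes (43.2%) and the second 5756 (48.2%). These steps share the 24 h libraries with each other and the end groups with the net change, so the classes that follow are a description. Of the genes with a called net change, 2438 moved late (a call in the second step alone), 1861 moved early (a call in the first step alone) and 1347 moved in both steps in the same direction. A further 297 overshot, going past their later level by 24 h, and 366 turned, moving first against their net direction. The other 894 were unresolved: neither step was called, or a lone step was called against the net direction. Among the genes without a called net change, 435 had a peak at 24 h and 402 a dip. The large rises were mostly late or stepwise: of the 523 genes that rose at least 2-fold, 214 were late, 227 moved in both steps and 54 were early. Of the 343 that fell at least 2-fold, 123 were late, 182 moved in both steps and 24 were early.

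**Figure D1:**
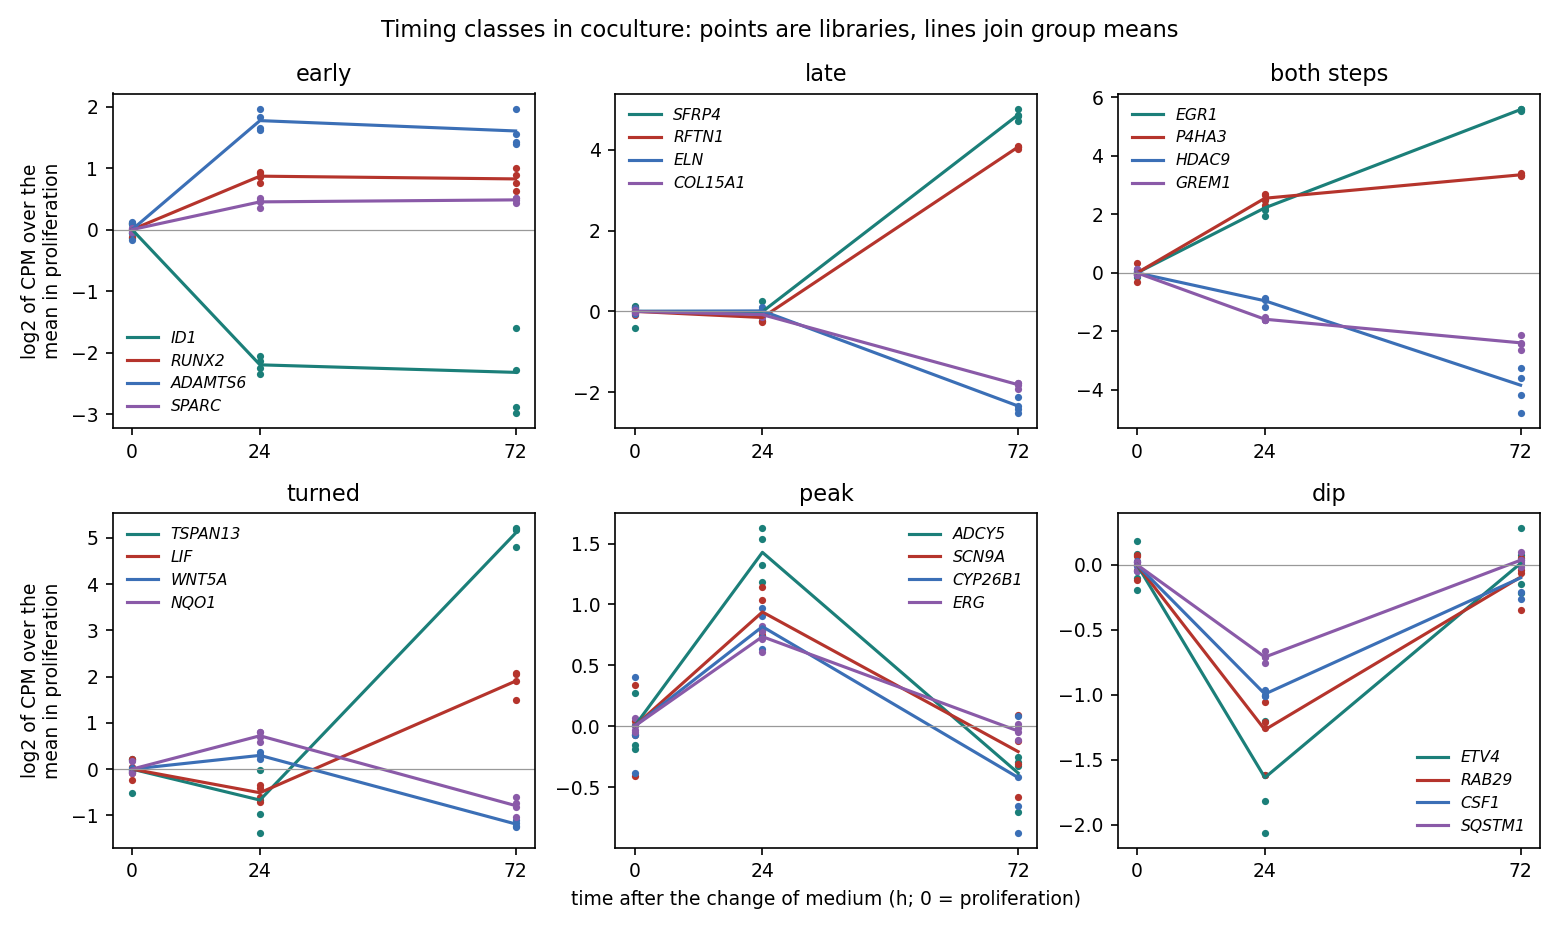
Levels of named genes in 6 timing classes, as log2 of CPM over the mean in proliferation (vertical axis) against hours after the change of medium (horizontal axis, 0 is proliferation); points are libraries and lines join group means. SFRP4 and RFTN1 stayed near 0 until 24 h and were more than 4 log2 units higher at 72 h, while the genes with a peak or a dip at 24 h had no called net change.

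The 12 largest rises were taken from called genes with a symbol of 1 gene only and at least 5 CPM in the higher group. No overlap between the libraries of proliferation and 72 h was a further condition, so in these genes it was required, not found. The 12 genes included secreted immune factors, an immediate early gene, a Wnt antagonist, an antioxidant enzyme, a transporter and an adhesion gene. IL6, the cytokine interleukin 6, stood at 2.40, 2.05, 3.27 and 2.21 CPM in proliferation replicates 1 to 4 and at 54.8, 197, 145 and 114 CPM at 72 h. All 4 libraries at 72 h lay above all 4 in proliferation, with replicate 1 the lowest of them. The net change was 5.76 ± 0.29 (adjusted p = 5.35e-17), and the level at 24 h, 3.15 ± 0.399 CPM (SD, n = 4), was not called different from proliferation. CFB, complement factor B of the alternative pathway, rose from 2.16, 0.646, 1.39 and 0.596 CPM to 16.5, 91.2, 47.1 and 56.5 CPM. Its groups did not overlap either, but the 72 h libraries were wide apart and the standard error was large (net change 5.62 ± 0.56, adjusted p = 3.61e-10). C3, the central complement protein, went from 4.62, 3.72, 2.77 and 4.05 CPM to 48.0, 114, 74.2 and 87.3 CPM by way of 13.2 ± 1.31 CPM at 24 h (SD, n = 4). Its net change was 4.40 ± 0.24 (adjusted p = 2.51e-16), and both steps were called.

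EGR1, an immediate early transcription factor, varied little between the libraries of 72 h. Its levels were 6.78, 5.98, 6.69 and 6.62 CPM in proliferation, 24.9, 36.5, 30.9 and 29.1 CPM at 24 h and 311, 318, 314 and 303 CPM at 72 h. The 3 times formed 3 separate groups of libraries, and the net change of 5.60 ± 0.11 (adjusted p = 3.02e-27) was made in both steps. SFRP4, a secreted antagonist of Wnt ligands, read 4.20, 4.25, 4.24 and 2.92 CPM in proliferation and 102, 126, 114 and 112 CPM at 72 h. No change was called by 24 h (3.89 ± 0.575 CPM, SD, n = 4), and the net change was 4.84 ± 0.21 (adjusted p = 1.49e-18). GPX3, the secreted glutathione peroxidase, rose from 22.8, 20.8, 20.7 and 19.2 CPM to 379, 320.3, 376 and 330.2 CPM. Nearly all of its change of 4.07 ± 0.088 (adjusted p = 2.73e-26) fell after 24 h, where the second step was 3.76. RFTN1, which encodes a lipid raft protein, was at 6.36, 6.11, 5.63 and 5.78 CPM in proliferation and 96.8, 101, 101 and 102 CPM at 72 h. The 72 h libraries lay close together, and the change was 4.06 ± 0.065 (adjusted p = 1.89e-29).

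The other large rises were of low genes. TSPAN13, a tetraspanin, turned: it fell from 1.28 ± 0.280 to 0.807 ± 0.334 CPM (SD, n = 4) at 24 h and was at 44.1 ± 5.55 CPM at 72 h, a net change of 5.03. CA13, a carbonic anhydrase (4.87), and SLC1A1, a glutamate transporter (4.58), rose late. NTNG2, a netrin family adhesion protein (4.50), and KIF26B, of the kinesin family (4.44), rose in both steps. The files place IL6 (ENSBTAG00000014921) on chromosome 4 at 31454757 to 31459131, EGR1 (ENSBTAG00000010069) on chromosome 7 at 49826480 to 49830253 and SFRP4 (ENSBTAG00000015366) on chromosome 4 at 49731840 to 49742113. For these coordinates the sources used here name no build.

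Among the 12 largest falls, chosen in the same way, were transcription regulators, matrix and signalling genes. HDAC9, a class IIa histone deacetylase known as a repressor of MEF2 factors, fell the most of them. Its levels were 37.1, 36.9, 38.0 and 41.6 CPM in proliferation, 17.2, 20.2, 21.4 and 20.6 CPM at 24 h and 4.03, 1.39, 3.20 and 2.13 CPM at 72 h. No library of one time overlapped another time, and the net change was -3.85 ± 0.15 (adjusted p = 1.21e-19). AQP1, a water channel, fell from 24.3, 27.1, 26.0 and 28.1 CPM to 2.90, 1.51, 2.80 and 2.32 CPM in both steps (-3.47 ± 0.13, adjusted p = 2.57e-20). ELN, which encodes elastin, was at 395, 442, 407 and 418 CPM in proliferation and still at 401, 392, 450.3 and 430.3 CPM at 24 h. It was at 96.1, 77.3, 81.5 and 72.6 CPM at 72 h, a late fall of -2.34 ± 0.069 (adjusted p = 6.70e-23) with no overlap between the end groups. GREM1, a secreted antagonist of BMP ligands, fell from 292, 300.2, 304 and 335 CPM to 70.2, 49.5, 56.9 and 58.3 CPM (-2.39 ± 0.075, adjusted p = 2.60e-22). Most of that change, -1.58, was made by 24 h.

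IL1RL1, the receptor of interleukin 33, had lost most of its level by 24 h: 9.04 ± 0.498 CPM in proliferation, 1.49 ± 0.248 CPM at 24 h and 0.932 ± 0.127 CPM at 72 h (SD, n = 4), a net change of -3.28. ID1, an inhibitor of myogenic helix-loop-helix factors, moved early, with a first step of -2.20 and a net change of -2.35. CRYAB, a small heat shock protein of muscle, fell in both steps from 207 ± 12.2 to 35.9 ± 2.52 CPM (SD, n = 4; -2.53). The corepressor gene SKOR1 (-2.88), SEMA5B of the semaphorins (-2.40), the tubulin gene TUBA4A (-2.61), KANK4 (-2.62) and the GTPase gene GIMAP7 (-2.25) fell in both steps as well. Genes without a symbol were not ranked, although ENSBTAG00000055504 (4.32) and ENSBTAG00000061572 (-2.34) had net changes as large as those named; both were chosen after their values were seen, and the latter changed by -0.21 with a lane term (adjusted p = 0.0976). The files place HDAC9 (ENSBTAG00000060258) on chromosome 4 at 26710138 to 27293366, ELN (ENSBTAG00000019517) on chromosome 25 at 33277414 to 33310464 and GREM1 (ENSBTAG00000050495) on chromosome 10 at 29962967 to 29978841.

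**Figure D2:**
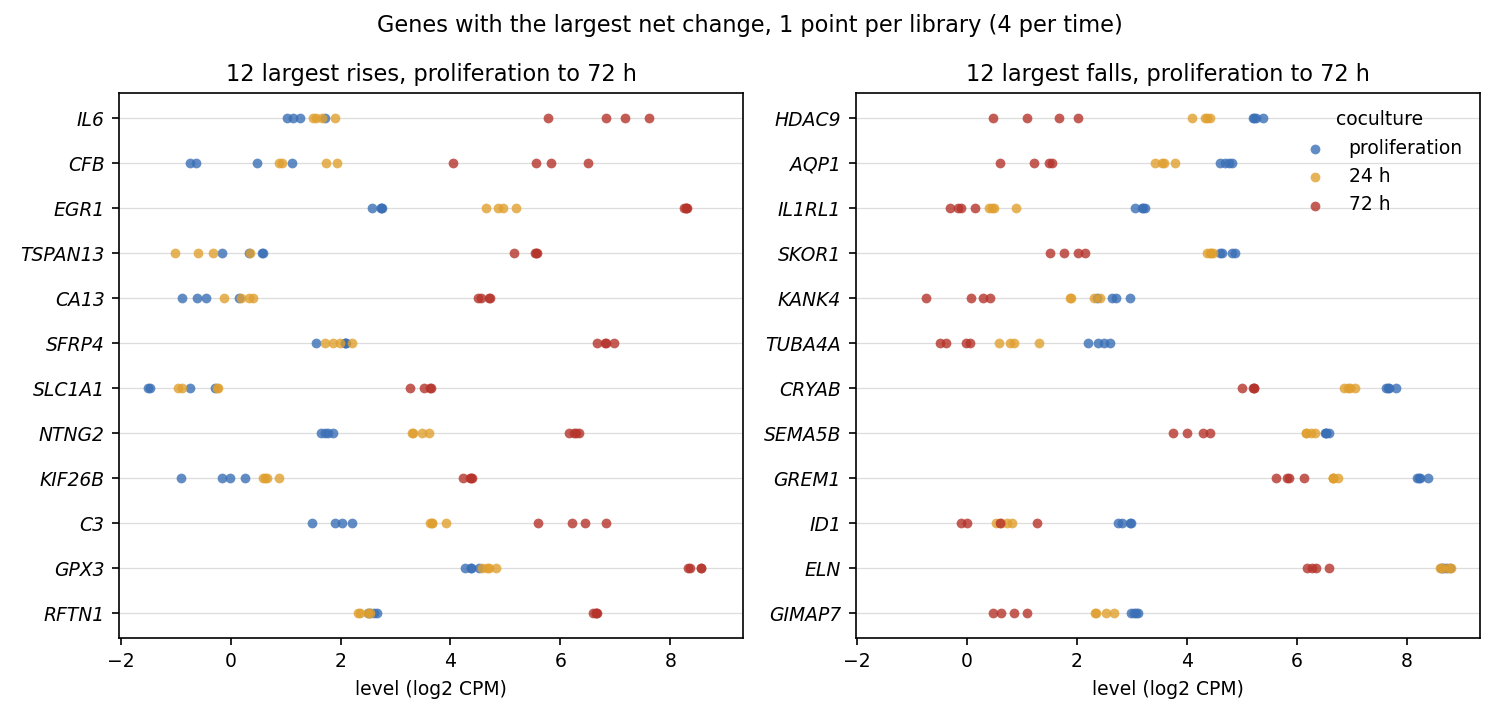
Levels in log2 CPM (horizontal axis) of the 12 genes with the largest rises and the 12 with the largest falls among those with a symbol of their own, with 1 point per coculture library in proliferation, at 24 h and at 72 h. The 72 h points of IL6, CFB and C3 are spread more widely than those of EGR1 and RFTN1, and in no gene shown do the 72 h points overlap those of proliferation, as the rule for naming these genes required.

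Genes were then read in 40 lists by function, and each list is set against all genes tested, of which 30.4% were called higher and 30.0% lower with a median of 0.0074. The plot of lists by median change orders those with more than 5 measured genes. At its top stand the glucocorticoid targets, the cytokines with complement and the interferon response, and at its bottom the mitosis and DNA replication genes.

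**Figure D3:**
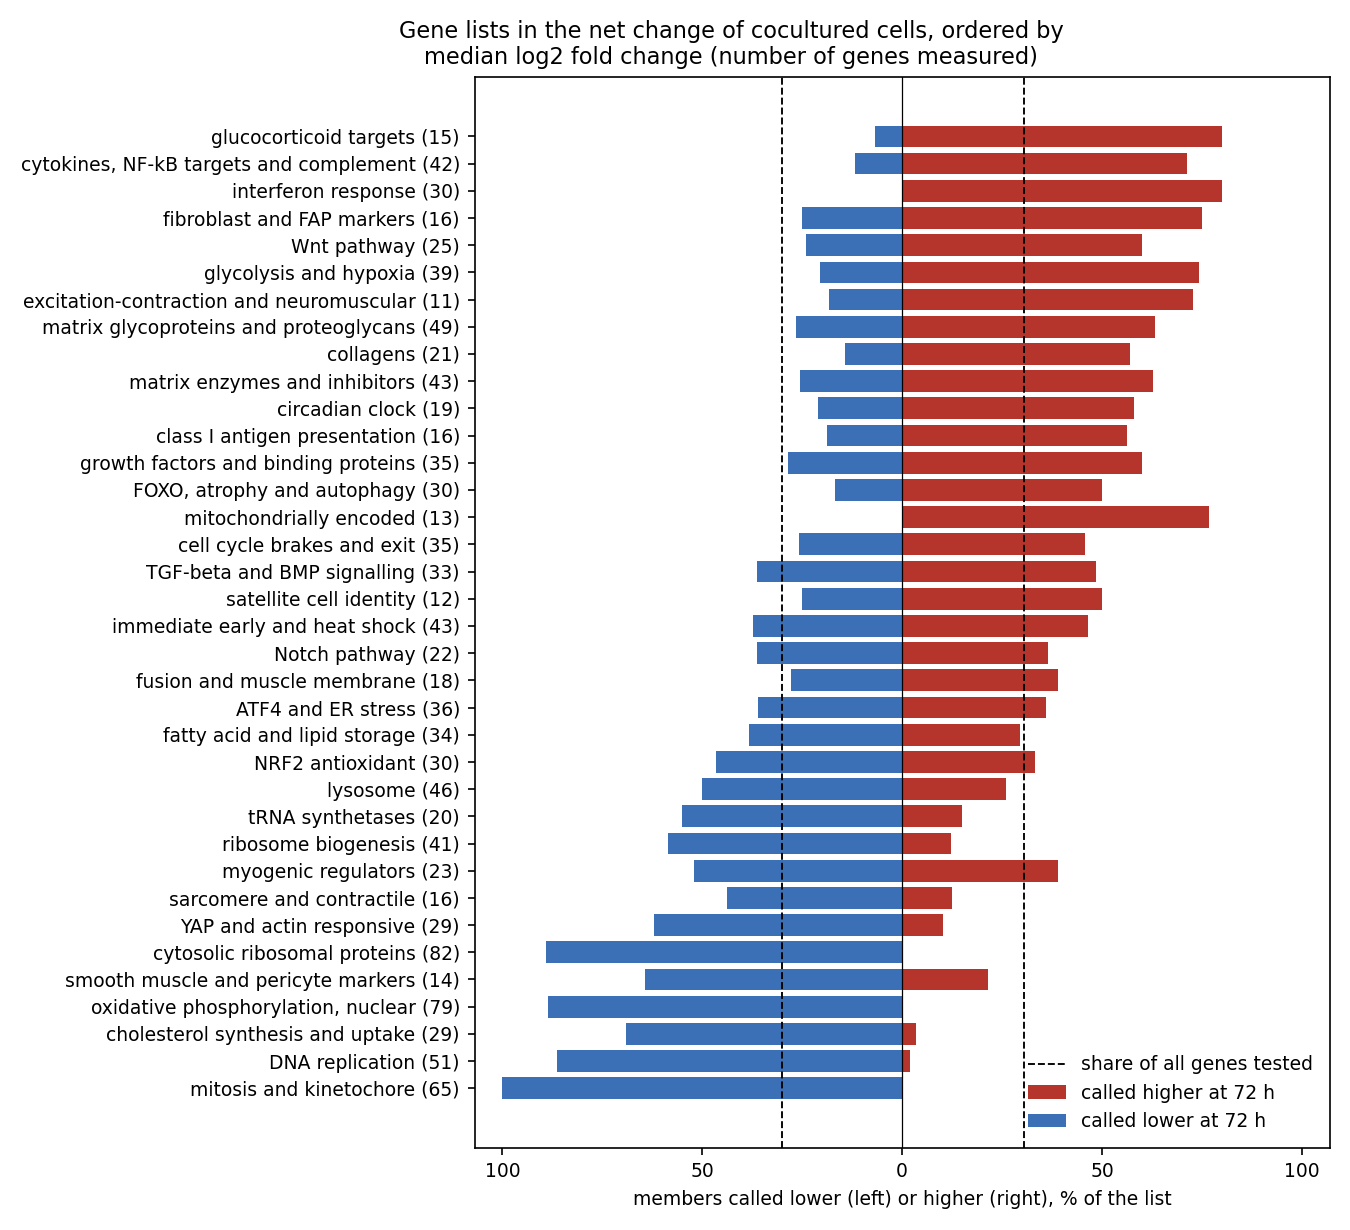
Share of each gene list (%, horizontal axis) called lower (left, blue) or higher (right, red) at 72 h than in proliferation, ordered by the median log2 fold change, with the number of genes in parentheses; dashed lines give the share of all genes tested. All 65 mitosis genes were called lower, and the interferon list held no gene called lower.

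The cell cycle genes fell together, and most of that fall came after 24 h. All 65 genes of the mitosis and kinetochore list were called lower, with a median of -1.22 and 51 falling at least 2-fold. Their summed level was 2777 to 2815 CPM over the proliferation libraries, 2386 to 2750 CPM at 24 h and 1185 to 1348 CPM at 72 h. The median step was -0.18 to 24 h and -1.02 from 24 h to 72 h, and 32 members were late while 31 fell in both steps. MKI67, the proliferation antigen Ki-67, read 155, 128, 123 and 142 CPM in proliferation and 121, 152, 132 and 125 CPM at 24 h, which overlap. It read 50.0, 58.0, 54.1 and 57.0 CPM at 72 h, below every earlier library, for a late fall of -1.32 ± 0.082 (adjusted p = 8.48e-15). The largest falls of the list were those of MAD2L1, a spindle checkpoint protein (-1.70 ± 0.20), CKS2, a subunit of cyclin-dependent kinases (-1.67 ± 0.078), the checkpoint kinase gene TTK (-1.61 ± 0.10) and KIF20A, a kinesin of cytokinesis (-1.57 ± 0.060). MKI67 and KIF20A kept 54.8 ± 3.60 and 23.9 ± 2.93 CPM (SD, n = 4) at 72 h, so these transcripts were reduced and still present.

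The DNA replication genes started to fall earlier. Of 51, 44 were called lower and 1 higher, with a median of -0.76, and 26 moved in both steps. The median was -0.34 in the first step and -0.44 in the second. UHRF1, which maintains DNA methylation at replication forks, went from 38.2 ± 1.80 to 22.4 ± 1.87 CPM (SD, n = 4) at 24 h and read 12.5, 15.01, 10.3 and 14.2 CPM at 72 h, a net change of -1.55 ± 0.084 in steps of -0.76 and -0.78. E2F8, a repressor of the E2F family (-1.69 ± 0.14), ORC1, of the origin recognition complex (-1.52 ± 0.15), and GINS2, of the replicative helicase (-1.49 ± 0.12), fell alongside. RPA1, of the single-strand binding complex, was the member called higher (0.22 ± 0.036, adjusted p = 4.66e-06), a call lost with library sizes alone (0.10).

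Genes that slow or end the cycle did not move as one. Of 35, 16 were called higher and 9 lower, with a median of 0.18. BTG2, an antiproliferative p53 target (11.02 ± 0.228 to 26.3 ± 1.58 CPM, 1.26 ± 0.15), rose late, and TP53INP1, another p53 target (1.07 ± 0.052), and SESN3, a sestrin induced by FOXO factors (1.25 ± 0.16), rose in both steps. CDKN2B, the kinase inhibitor p15, overshot, from 11.8 ± 0.500 CPM through 27.1 ± 1.75 to 22.4 ± 3.09 CPM (SD, n = 4), with a net change of 0.91 ± 0.091. CDK4, the kinase that p15 inhibits, fell by 24 h from 54.6 ± 1.43 to 31.1 ± 0.930 CPM (SD, n = 4; net change -0.67 ± 0.057). RBL1 (-0.69 ± 0.11), CDKN2C (-0.61 ± 0.11) and LIN9 of the DREAM complex (-0.96 ± 0.12, and -0.50 with a lane term) fell too.

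The muscle genes that were measured showed no common rise. Genes that fell below 6 counts in a library are missing from the list. A muscle gene silent in proliferation and switched on later would thus be absent, and its rise could not be seen. Whether the absent symbols, with MYOD1, MYOG, MYMK and MYH3 among them, are such genes was not tested. Of the 23 myogenic regulators, 9 were called higher and 12 lower (median -0.17). MEF2C, a transcription factor of muscle differentiation, fell from 5.04, 4.93, 4.49 and 4.47 CPM to 1.60, 1.74, 1.63 and 1.75 CPM, with no overlap (-1.50 ± 0.13, adjusted p = 1.80e-11). ID2 (-1.01 ± 0.061), which like ID1 holds back myogenic factors, fell with it. ZEB1, a repressor of muscle genes in myoblasts, rose from 41.8 ± 1.32 to 75.8 ± 1.89 CPM (SD, n = 4; 0.86 ± 0.048), and TCF12, a partner of MyoD factors (0.59 ± 0.060), KLF5 (0.59 ± 0.084) and HDAC4 (0.49 ± 0.10) rose as well.

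In the satellite cell identity list, 6 of 12 genes were called higher and 3 lower, and with library sizes alone the counts were 4 and 5. PAX3, a paired-box factor of muscle precursors, turned: its levels were 32.9, 35.0, 34.4 and 33.6 CPM in proliferation, 42.4, 40.3, 42.6 and 38.5 CPM at 24 h and 17.8, 21.6, 21.3 and 19.9 CPM at 72 h. The 24 h libraries were the highest and the 72 h libraries the lowest, for a net change of -0.76 ± 0.067 (adjusted p = 3.26e-11). NCAM1, an adhesion molecule found on satellite cells and on myotubes, rose late from 8.95 ± 1.23 to 41.8 ± 1.80 CPM (SD, n = 4; 2.20 ± 0.067, adjusted p = 1.35e-22). FGFR1, a receptor of fibroblast growth factors (0.83 ± 0.041), SDC4, a heparan sulphate proteoglycan (0.73 ± 0.062), and MET, the receptor of hepatocyte growth factor (0.36 ± 0.093, and 0.24 with library sizes alone), rose too.

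Of the 16 sarcomere and contractile genes, 2 were called higher and 7 lower, with a median of -0.18. With a lane term the counts were 0 and 5, and with library sizes alone 0 and 8. MYOM1, the myomesin of the M band, fell from 4.50, 3.53, 3.18 and 5.19 CPM to 1.13, 1.10, 0.990 and 0.996 CPM, and its groups did not overlap (-1.95 ± 0.18, adjusted p = 6.29e-11). CKB, the brain-type creatine kinase, fell from 49.5 ± 0.251 to 15.2 ± 2.22 CPM (SD, n = 4; -1.70 ± 0.085), and TPM3, a tropomyosin, changed by -0.57 ± 0.055. The members called higher were FLNC, filamin C (0.21), and SYNPO2, a Z-disc protein (0.20). Both overshot, and their calls were lost with the lane term (0.14 and 0.21) and with library sizes alone (0.093 and 0.081). The excitation-contraction list went the other way, with 8 of 11 called higher and 2 lower (median 0.45), though from low levels. With a lane term the counts were 5 and 1. CASQ1, the calcium store protein calsequestrin, was at 4.56 ± 0.747 and 8.38 ± 0.348 CPM (SD, n = 4; 0.83 ± 0.14) and CHRNB1, a subunit of the acetylcholine receptor, at 4.93 ± 0.437 and 7.92 ± 0.633 CPM (SD, n = 4; 0.68 ± 0.11).

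Fusion and membrane genes split, with 7 of 18 called higher and 5 lower (median 0.024; with a lane term 6 higher and 3 lower). ELMO1, which with DOCK1 activates Rac during fusion, rose late (1.95 ± 0.11), whereas DOCK1 fell (-0.27 ± 0.050), with its call lost under the lane term (-0.21). MYOF, the membrane repair protein myoferlin, fell from 423 ± 25.2 to 294 ± 12.5 CPM (SD, n = 4; -0.53 ± 0.044), and CD9, a tetraspanin of fusing cells, also fell (-0.68 ± 0.070). DMD, which encodes dystrophin (0.64 ± 0.067), and the cadherin gene CDH2 (0.47 ± 0.039) rose.

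The Notch pathway, which keeps satellite cells undifferentiated, moved both ways. Of 22 genes, 8 were called higher and 8 lower (median 0.034; with a lane term 5 higher and 8 lower). NOTCH2, a receptor, rose from 259 ± 37.3 to 475 ± 23.3 CPM (SD, n = 4; 0.88 ± 0.088), and PSEN2, of the protease that cleaves the receptor, rose too (0.69 ± 0.089). Transcriptional targets were among the falls. HEYL read 151, 149, 147 and 151 CPM in proliferation, 166 ± 3.37 CPM (SD, n = 4) at 24 h and 52.4, 36.8, 50.9 and 43.7 CPM at 72 h, a late fall without overlap (-1.70 ± 0.084, adjusted p = 2.69e-17). HES1 fell mostly by 24 h (-0.80 of a net change of -1.09 ± 0.066), and HES4 (-1.37 ± 0.18) and LFNG, a glycosyltransferase that modifies the receptors (-0.96 ± 0.060), fell late or in both steps.

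More matrix genes rose than fell, with a few large falls. Of 21 collagen genes, 12 were called higher and 3 lower, with a median of 0.42. COL1A1, a chain of type I collagen, read 25670, 24850, 25340 and 25210 CPM in proliferation and 55100, 51790, 52600 and 53070 CPM at 72 h. The groups were far apart relative to their spread, and the change was 1.07 ± 0.039 (adjusted p = 1.70e-20). COL3A1 (1.03 ± 0.056), COL1A2 (0.50 ± 0.042), COL11A1 (0.78 ± 0.058) and COL8A2 (1.76 ± 0.11) rose in both steps. COL15A1, a basement membrane collagen of muscle, fell from 782, 762, 763 and 791 CPM to 228, 206, 220.5 and 226 CPM, again without overlap (-1.81 ± 0.053, adjusted p = 5.32e-23). COL18A1, also of basement membranes, turned from a rise of 0.48 at 24 h to a net change of -0.47 ± 0.12.

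Of 49 matrix glycoproteins and proteoglycans, 31 were called higher and 13 lower (median 0.44). FN1, fibronectin, made the second largest gain in CPM after COL1A1, from 11350 ± 838 to 29540 ± 973 CPM (SD, n = 4; 1.38 ± 0.048). SPARC, a collagen-binding glycoprotein, rose early, with 0.45 of its 0.48 ± 0.034 by 24 h. MGP, which inhibits calcification, rose from 3.52 ± 0.482 to 44.0 ± 5.89 CPM (SD, n = 4; 3.61 ± 0.10), MFAP2, of microfibrils, by 3.59 ± 0.12, and LAMA2, the laminin chain of muscle basement membrane, by 2.45 ± 0.092. ELN, described above, fell the most of this list, and SPP1, osteopontin (-0.95 ± 0.054), EMILIN1, which sits on elastic fibres (-0.53 ± 0.056), and VCAN, versican (-0.51 ± 0.068), fell too. Among 43 matrix enzymes and inhibitors, 27 were called higher and 11 lower (median 0.34). P4HA3, a prolyl hydroxylase of collagen, rose from 4.08, 5.04, 6.45 and 4.89 CPM to 52.1, 51.3, 50.9 and 54.1 CPM without overlap (3.37 ± 0.10), mostly by 24 h (2.57). ADAMTS9, a metalloprotease of proteoglycans, rose mostly afterwards (2.27 of 3.05 ± 0.12). MMP14, a membrane collagenase (-0.64 ± 0.054), and CTSK, the collagen-degrading cathepsin K (-0.55 ± 0.048), fell early.

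Genes of inflammation and complement rose mostly after 24 h. Of 42 genes for cytokines, NF-kB targets and complement, 30 were called higher and 5 lower, with a median of 1.01, and 21 rose at least 2-fold. Of the members with a net call, 17 were late and 12 moved in both steps, and the median was 0.15 in the first step and 0.79 in the second. Their summed level was 823 to 852 CPM in proliferation, 942 to 972 CPM at 24 h and 1595 to 2794 CPM at 72 h, so that the groups at the ends did not overlap. SOD2, a mitochondrial superoxide dismutase induced by NF-kB, was at 11.7, 11.8, 10.5 and 11.4 CPM in proliferation and 53.1, 169, 129 and 96.5 CPM at 72 h. Its change of 3.28 ± 0.21 (adjusted p = 1.64e-14) was late. Further complement genes, named after their values were seen, rose with C3 and CFB: CLU, clusterin (3.24), C1S (3.22) and C1R (2.85), proteases of the C1 complex, and SERPING1, their inhibitor (2.32). IL15 (-0.83 ± 0.23, and -1.31 with a lane term), CXCL12 (-0.71 ± 0.11), IL18 (-0.62 ± 0.092) and SOCS3, an inhibitor of cytokine receptors (-0.58 ± 0.094), fell.

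The interferon response list had 24 of 30 genes called higher and 0 lower, with a median of 0.66, and 18 late. With a lane term 16 were called higher. MX1, an antiviral GTPase, read 12.2, 12.1, 12.98 and 11.2 CPM in proliferation, 11.6 ± 5.62 CPM (SD, n = 4) at 24 h and 46.5, 58.2, 62.1 and 43.9 CPM at 72 h. The 72 h libraries were all above the others (2.12 ± 0.17, adjusted p = 3.52e-12). IFI6 (2.13 ± 0.15), SAMD9 (1.46 ± 0.13) and IFIH1, the sensor of viral RNA known as MDA5 (1.46 ± 0.17), rose with it. Of 16 genes of class I antigen presentation, 9 were called higher and 3 lower (median 0.31), with ERAP2, a peptide-trimming protease (1.27 ± 0.095), and PSMB10, of the immunoproteasome (0.77 ± 0.10), among the rises. The summed level of the list nevertheless fell. It was 2632 to 2758 CPM in proliferation, 2406 to 2479 CPM at 24 h and 2195 to 2351 CPM at 72 h. NLRC5, the activator of class I genes, fell early (-0.99 ± 0.17), and the chaperone gene CALR fell in both steps (-0.80 ± 0.038).

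Within these lists the 72 h libraries differed. Replicate 1 at 72 h, the library with 2.24% nuclear ribosomal RNA, was the lowest of the 4 in 1231 of the 3623 genes called higher (34.0%). In the genes called higher it was the lowest in 23 of 30 of the cytokine list, 19 of 24 of the interferon list, 7 of 9 of the class I list and 25 of 29 of the glycolysis and hypoxia list. Without that library the changes were at least as large: 6.01 for IL6, 5.92 for CFB, 4.58 for C3 and 3.51 for SOD2. With the libraries rich in ribosomal RNA left out, 25 interferon genes and 30 cytokine genes were called higher. The part of ribosomal RNA content in the level of replicate 1 was not tested.

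On the joint list of immediate early and heat shock genes, the members that rose most were immediate early genes and those that fell most were heat shock genes. The list had 20 of 43 called higher and 16 lower (median 0.11; with a lane term 13 higher and 14 lower). FOS, of the AP-1 factor, rose from 30.1, 28.5, 30.6 and 28.4 CPM to 316, 282, 317 and 316 CPM without overlap (3.39 ± 0.15, adjusted p = 2.50e-18). The orphan nuclear receptor genes NR4A1 (14.7 ± 1.25 to 142 ± 5.64 CPM, 3.29 ± 0.084) and NR4A2 (2.12 ± 0.10) rose as EGR1 did, with the larger step after 24 h. HSPH1, a partner of HSP70, fell in both steps from 137 ± 5.33 to 57.8 ± 1.10 CPM (SD, n = 4; -1.24 ± 0.045), and HSPB1, a small heat shock protein, fell by less (-0.57 ± 0.055). Of 15 glucocorticoid targets, 12 were called higher and 1 lower, with the highest median of the lists with more than 5 genes, 1.13. With a lane term the counts were 12 and 0, and they were 12 and 2 both with library sizes alone and without the libraries rich in ribosomal RNA. TSC22D3, known as GILZ, rose from 29.7, 28.3, 27.4 and 26.2 CPM through 70.2 ± 5.74 CPM (SD, n = 4) to 116, 112, 120.1 and 108 CPM, with no overlap between times (2.03 ± 0.055, adjusted p = 7.55e-24). KLF9 (2.02 ± 0.14) and CEBPD (1.95 ± 0.075), both transcription factors, and ANGPTL4, a secreted inhibitor of lipoprotein lipase that other lists here also hold (15.3 ± 1.60 to 189 ± 16.4 CPM, 3.62 ± 0.072), rose in both steps. GLUL, glutamine synthetase, was called lower (-0.14 ± 0.048, and -0.26 with library sizes alone), a call lost with the lane term (-0.17) and also without proliferation replicate 2 (-0.12, adjusted p = 0.0509).

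Of 19 clock genes, 11 were called higher and 4 lower (median 0.31; with a lane term 10 higher and 1 lower). PER1, which glucocorticoids also induce, overshot from 8.22 ± 0.686 to 37.1 ± 0.932 CPM at 24 h and 27.9 ± 1.65 CPM at 72 h (SD, n = 4; 1.78 ± 0.073). RORA, an activator of the clock loop, turned (-0.75, then 2.23), and ARNTL2 rose in both steps (1.88 ± 0.15). The FOXO and autophagy list had 15 of 30 called higher and 5 lower (median 0.23; with a lane term 13 higher and 2 lower). IRS2, an adaptor of the insulin receptor, rose mostly by 24 h, from 6.74 ± 0.363 to 26.6 ± 2.91 and then 32.9 ± 3.05 CPM (SD, n = 4; 2.26 ± 0.11). FOXO1 (1.14 ± 0.084), the ubiquitin ligase gene FBXO32, atrogin-1 (1.30 ± 0.18), and INSR, the insulin receptor (1.51 ± 0.21), rose too.

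The lists of energy metabolism did not share 1 direction. Of 39 glycolysis and hypoxia genes, 29 were called higher and 8 lower (median 0.53), and the summed level went from 11170 to 11780 CPM in proliferation to 14290 to 16750 CPM at 72 h. With a lane term the counts were 25 and 4. ERO1A, an oxidase of the endoplasmic reticulum induced by hypoxia (45.7 ± 3.52 to 133 ± 11.5 CPM, 1.55 ± 0.059), DDIT4, an inhibitor of mTORC1 (1.73 ± 0.15), and SLC16A3, the lactate exporter (2.49 ± 0.18), rose. HK3, a hexokinase, fell late (-1.54 ± 0.14). A copy of LDHA that shares its symbol with another gene was called lower (-0.75), but with the lane term its change was 0.26 (adjusted p = 0.203). None of the 79 nuclear genes of oxidative phosphorylation was called higher, and 70 were called lower, with a median of -0.37. CYCS, cytochrome c, fell from 122, 133, 119 and 126 CPM to 78.4, 80.6, 77.9 and 78.2 CPM (-0.67 ± 0.046, adjusted p = 9.22e-14), and ATP5MC3, a subunit of the ATP synthase ring, and CYC1, of complex III, fell alike (-0.74 ± 0.054 and -0.68 ± 0.048). With the lane term 51 of the nuclear genes were called lower. Of the 13 genes encoded by the mitochondrial genome, 10 were called higher and 9 overshot, with a median of 0.56 in the first step and -0.30 in the second. COX1, a subunit of complex IV, read 6346 ± 156 CPM, then 9971 ± 459 CPM and then 8076 ± 287 CPM (SD, n = 4). With library sizes alone 6 of the mitochondrial genes were called higher, and the net change of COX1 was 0.23 against 0.35.

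**Figure D4:**
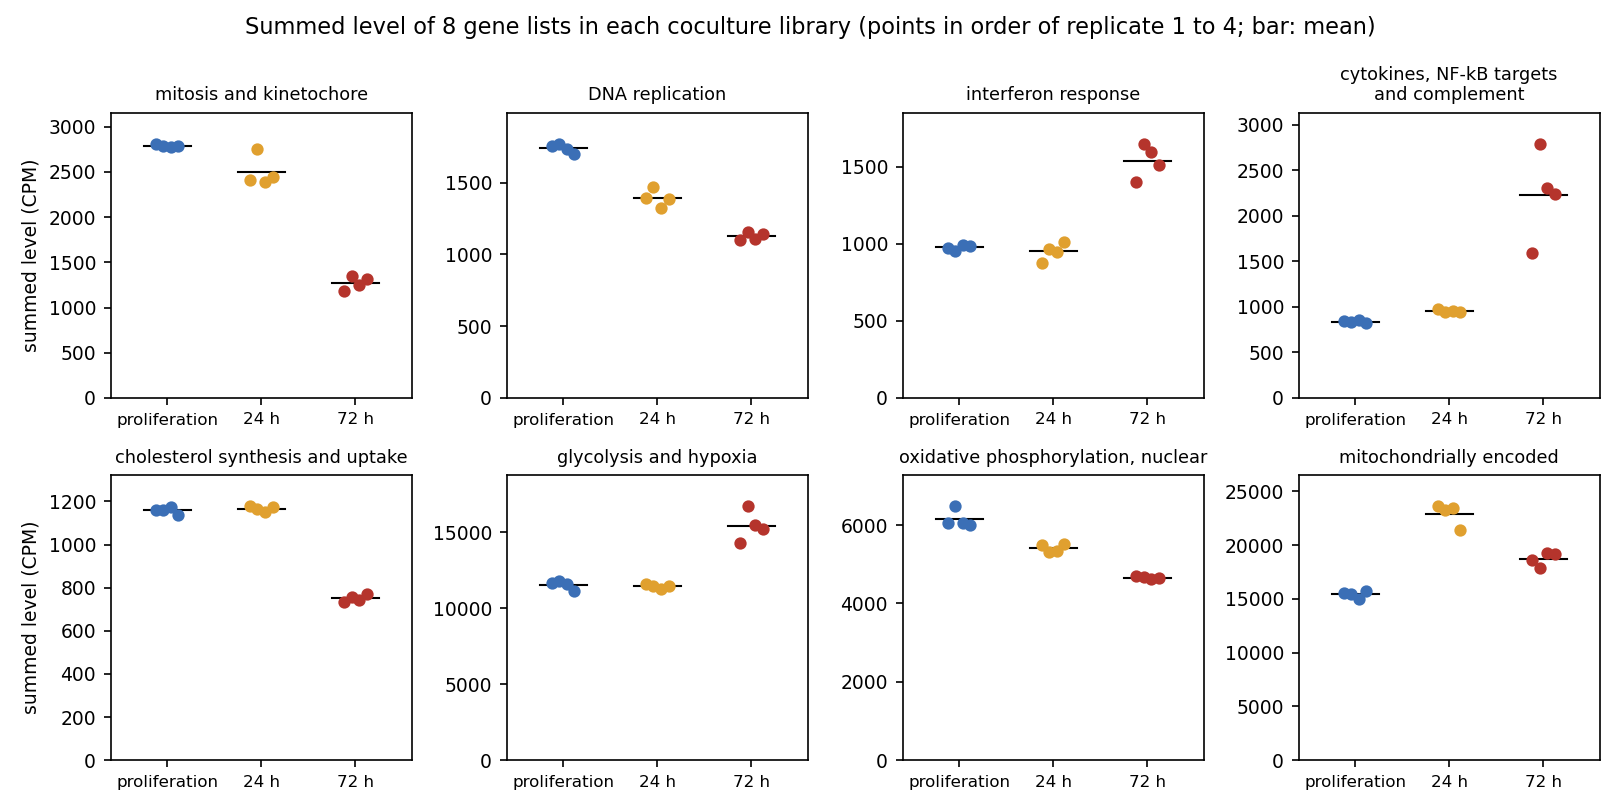
Summed level (CPM, vertical axis, from 0) of 8 gene lists in each coculture library, with 4 points per time in order of replicate 1 to 4 and a bar at the mean. The mitosis sum was at least 2386 CPM up to 24 h and at most 1348 CPM at 72 h, while the cytokine sum at 72 h was lowest in replicate 1.

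Cholesterol synthesis genes fell after 24 h. Of 29, 20 were called lower and 1 higher (median -0.74), with a median first step of -0.0090 and a second of -0.54. HMGCS1, which makes the precursor of mevalonate, read 60.1, 58.9, 58.7 and 57.3 CPM in proliferation, 63.0, 60.0, 59.2 and 63.8 CPM at 24 h and 26.9, 24.9, 24.9 and 24.4 CPM at 72 h. The fall of -1.22 ± 0.056 (adjusted p = 5.86e-18) left no overlap. SQLE, squalene epoxidase, turned (0.43, then -1.56), and INSIG1, a brake on the SREBP factors (-1.27 ± 0.11), and FDFT1, squalene synthase (-1.07 ± 0.071), fell late. TM7SF2, a sterol reductase, was the member called higher (1.01 ± 0.24). Lipid storage genes split, with 10 of 34 higher and 13 lower (median -0.093; with a lane term 6 higher and 12 lower). PLIN2, the coat protein of lipid droplets, rose from 71.4 ± 1.58 to 373 ± 22.1 CPM (SD, n = 4; 2.38 ± 0.048), while SCD, a fatty acid desaturase (-1.28 ± 0.12), and FABP3, the fatty acid carrier of heart and muscle (-1.41 ± 0.11), fell.

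With composition scaling and no lane term, genes of the translation machinery fell slightly and early. Of 82 cytosolic ribosomal protein genes, 73 were called lower and 0 higher, with a median of -0.29, and 48 were early. With the lane term 51 were called lower. The members with falls of at least 2-fold, RPL17, RPS19, RPL35 and RPS16, each share their symbol with another gene, and the calls of the last 3 were lost with the lane term, under which the net changes of these 4 were -0.56, -0.029, 0.10 and -0.27. EEF1A1, the elongation factor, fell from 9670 ± 165 to 6947 ± 123 CPM (SD, n = 4; -0.48 ± 0.040). Of 41 ribosome biogenesis genes, 5 were called higher and 24 lower (median -0.15; with a lane term 1 higher and 8 lower, and with library sizes alone 1 and 32). Under the lane term the share of this list called lower was near that of all genes, 2223 of 11937. NPM1, nucleophosmin (-0.55 ± 0.043), and FBL, fibrillarin (-0.60 ± 0.055), fell, whereas MYC turned, from 45.6 ± 1.70 through 39.7 ± 1.66 to 67.5 ± 3.37 CPM (SD, n = 4; 0.57 ± 0.053). Of 20 transfer RNA synthetases, 3 were called higher and 11 lower (median -0.14; with a lane term 2 higher and 6 lower, and with library sizes alone 1 and 16).

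Stress and degradation lists split. Of 36 ATF4 and endoplasmic reticulum stress genes, 13 were higher and 13 lower (median -0.00093). HSPA5, the chaperone BiP, rose from 870.4 ± 9.60 to 1597 ± 53.2 CPM (SD, n = 4; 0.88 ± 0.052) and CEBPB, a stress-induced factor, by 1.38 ± 0.071, while PDIA4 (-0.80 ± 0.052) and MANF (-0.81 ± 0.063), which serve protein folding, fell. Of 46 lysosome genes, 12 were higher and 23 lower (median -0.13; with a lane term 7 higher and 16 lower, and with library sizes alone 7 and 28). CTSZ, cathepsin Z, fell mostly by 24 h (-0.72 of -0.86 ± 0.041), and CTSH, cathepsin H, rose late (0.50 ± 0.040). Of 30 NRF2 antioxidant genes, 10 were higher and 14 lower (median -0.12; with a lane term 4 higher and 10 lower, and with library sizes alone 6 and 14). NQO1, a quinone reductase, turned from 88.4 ± 7.61 to 146 ± 9.66 CPM at 24 h and 51.1 ± 6.59 CPM at 72 h (SD, n = 4; -0.79 ± 0.089), and GCLC, of glutathione synthesis, turned the other way (0.53 ± 0.085).

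Among secreted signals, 21 of 35 growth factors and binding proteins were called higher and 10 lower (median 0.29). IGFBP3, a carrier of insulin-like growth factors, rose late, from 2.22, 2.50, 3.10 and 3.28 CPM to 22.4, 13.1, 20.5 and 17.3 CPM with no overlap (2.75 ± 0.16, adjusted p = 1.05e-15). FGF7, a fibroblast growth factor that acts on epithelia (19.3 ± 0.634 to 69.9 ± 10.1 CPM, 1.86 ± 0.091), and LIF, a cytokine of the interleukin 6 family (1.86 ± 0.15), rose. GDF15, a stress cytokine of the TGF-beta family (-1.02 ± 0.13), VEGFD (-1.76 ± 0.19) and GREM1, described above, fell. In the TGF-beta and BMP list 16 of 33 were higher and 12 lower (median 0.14; with a lane term 10 higher and 7 lower, and with library sizes alone 10 and 12). The ligand gene TGFB3 fell from 100.5, 104, 96.6 and 104 CPM to 49.1, 35.8, 40.4 and 39.3 CPM without overlap (-1.30 ± 0.065, adjusted p = 3.83e-17), and LRRC32, which anchors latent TGF-beta, fell as well (-0.66 ± 0.061). The receptor gene TGFBR2 rose late (27.3 ± 1.60 to 58.6 ± 1.61 CPM, 1.11 ± 0.054), and the antagonist gene CHRD, chordin, rose in both steps (0.85 ± 0.12).

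In the Wnt pathway 15 of 25 genes were called higher and 6 lower (median 0.55). The ligand gene WNT5A turned, reading 65.6, 64.9, 66.3 and 64.9 CPM in proliferation, 76.2, 84.7, 80.4 and 80.3 CPM at 24 h and 27.6, 30.4, 29.2 and 27.8 CPM at 72 h, with no overlap between times (-1.19 ± 0.060, adjusted p = 5.21e-17). DKK2, a secreted modulator of Wnt receptors, turned in the same way (-1.16 ± 0.14). The receptor genes FZD1 (55.9 ± 1.46 to 179.5 ± 6.03 CPM, 1.68 ± 0.044) and FZD2 (1.22 ± 0.11) and the antagonist gene SFRP2 (1227 ± 41.5 to 3537 ± 219.7 CPM, 1.53 ± 0.044) rose in both steps, while SFRP4 rose late.

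The cytoplasmic actin genes fell. Of 29 YAP and actin responsive genes, 3 were called higher and 18 lower (median -0.21). ACTB (9433 ± 257 to 6037 ± 156 CPM, -0.64 ± 0.042) and ACTG1 (7720 ± 76.0 to 5070 ± 78.2 CPM, -0.61 ± 0.047), the cytoplasmic actins often taken as constant references, fell in both steps. CCN1, a matrix protein induced by YAP (0.65 ± 0.041), was among those that rose. The 14 measured markers of smooth muscle and pericytes had 3 called higher and 9 lower (median -0.34), and their summed level was 23670 to 25550 CPM in proliferation and 14810 to 15950 CPM at 72 h. 1 was called higher with a lane term and likewise with library sizes alone. ACTA2, smooth muscle actin, which myoblasts also express, made the largest loss in CPM, from 13770, 14820, 13910 and 13510 CPM to 6294, 5309, 5646 and 5838 CPM. The groups did not overlap, and the change was -1.28 ± 0.055 (adjusted p = 1.08e-18). CSPG4, the pericyte proteoglycan NG2 (231 ± 4.67 to 59.4 ± 9.95 CPM, -1.96 ± 0.082), and the receptor gene PDGFRB (-1.13 ± 0.047) fell with it, and MYLK, the myosin light chain kinase (0.91 ± 0.043), rose.

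Of 16 measured markers of fibroblasts and fibro-adipogenic progenitors, 12 were called higher and 4 lower (median 0.56), and their sum was 8403 to 8711 CPM in proliferation and 7262 to 7380 CPM at 72 h. PDGFRA, a defining receptor of these progenitors, read 63.9, 57.2, 59.2 and 59.9 CPM in proliferation and 105, 134, 125 and 119 CPM at 72 h, with no overlap (1.01 ± 0.057, adjusted p = 8.18e-16). CLEC3B (1.74 ± 0.11) and OSR1 (1.07 ± 0.095) rose late, while S100A4 (1095 ± 61.9 to 503 ± 18.6 CPM, -1.12 ± 0.075), VIM, vimentin (-0.43 ± 0.035), and THY1 (-0.32 ± 0.082) fell. These markers move beside the collagen and matrix genes, and their part in those changes was not tested. Few markers of other cells were measured: 5 of 15 for adipocytes, 3 of 14 for endothelium, 1 of 18 for leukocytes and 5 of 17 for bone and cartilage. The leukocyte marker, CD68, was at 1.11 ± 0.299 CPM in proliferation and 1.14 ± 0.286 CPM at 72 h (SD, n = 4) and was not called. FABP4, an adipocyte fatty acid carrier (-1.49 ± 0.11), fell, while CEBPA (1.65 ± 0.23), VWF, of endothelium (1.55 ± 0.0844 to 3.91 ± 0.423 CPM, 1.34 ± 0.18), and RUNX2, of bone (0.83 ± 0.083), rose.

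Some genes went there and back. CSF1, the macrophage growth factor, read 242, 230.4, 237 and 243 CPM in proliferation, 118, 118, 122 and 119 CPM at 24 h and 198, 239, 206 and 245 CPM at 72 h. The 24 h libraries lay below all others, the end groups overlapped, and the steps were -0.99 and 0.89 (adjusted p = 1.35e-12 and 3.95e-12). The net change of CSF1 was called with library sizes alone (-0.22). SQSTM1, the autophagy receptor p62, dipped from 286 ± 6.07 to 175 ± 4.94 CPM and returned to 293 ± 9.49 CPM (SD, n = 4). KLF4 (-0.64, then 0.70) and the ETS factor gene ETV4 (-1.62, then 1.64) dipped too. ADCY5, an adenylyl cyclase, peaked, with 2.04, 1.99, 2.29 and 2.74 CPM, then 5.68, 5.14, 6.99 and 6.57 CPM and then 1.90, 1.39, 1.81 and 1.85 CPM. The ETS factor gene ERG (0.74, then -0.77) and CYP26B1, which degrades retinoic acid (0.89, then -1.24), peaked as well. The net change of CYP26B1 was called when 72 h replicate 3 (-0.55) or proliferation replicate 2 (-0.50) was left out, and with library sizes alone (-0.47).

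The last comparison asks whether the net change in coculture differed from that in monoculture, as a difference of log2 fold changes in one model. It was called in 7437 genes (62.3%), with 3740 higher (31.3%) and 3697 lower (31.0%) in coculture. With library sizes alone these counts were 5158 and 2075, and the median difference moved from 0.013 to 0.21, so small differences depend on scaling. A code in the labels, which they do not explain, is the same in all coculture libraries and changes with time in monoculture, so that for this comparison it cannot be told apart from time.

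The mitosis genes fell less in coculture. Of 65, 60 had a higher and 0 a lower net change than in monoculture, where the median was -2.16 against -1.22. MKI67 changed by -2.33 ± 0.090 in monoculture, a difference of 1.01 ± 0.12 (adjusted p = 3.22e-08). Of the 30 interferon genes, 28 had a higher and 0 a lower net change in coculture, with medians of 0.66 there and -0.26 in monoculture. Cholesterol genes also fell less, with 20 differences higher and 3 lower, and 21 and 0 with library sizes alone. CXCL5, a neutrophil chemokine, rose in coculture from 87.8, 86.0, 93.7 and 73.7 CPM to 277, 662, 514 and 464 CPM. In monoculture it went from 163, 202, 158 and 163 CPM to 71.7, 62.3, 108 and 87.3 CPM, the opposite direction, and the difference was 3.56 ± 0.23 (adjusted p = 2.68e-13). SOD2 (2.98 ± 0.32), IFIH1 (2.27 ± 0.27), ADAMTS5, an aggrecan-cleaving protease (2.38 ± 0.17), SCD (2.23 ± 0.18) and PDGFRA (1.52 ± 0.082) had higher net changes in coculture. For IL6 the difference was 1.65 ± 0.69 (adjusted p = 0.0374), a call lost with the lane term (adjusted p = 0.106) and when any of 8 libraries was left out (proliferation replicates 2 and 4 of the coculture, and 72 h replicates 2 and 3 and all proliferation replicates of the monoculture). For CFB it was 2.58 ± 1.18 (adjusted p = 0.0574) and was not called, but without 72 h replicate 1 of the coculture it was 2.87 (adjusted p = 0.0141). It was also called without proliferation replicate 1 of the coculture (3.03) and without 72 h replicate 3 of the monoculture (3.78). The CFB difference was called as well with DESeq2 (adjusted p = 0.0140), with library sizes alone (adjusted p = 0.0274) and with a replicate block (adjusted p = 0.0402). Without the libraries rich in ribosomal RNA it was 4.63 (adjusted p = 6.44e-08).

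Most collagens had a lower net change in coculture, with 17 of 21 differences called lower and 0 higher. The cultures differed already in proliferation, where the collagen sum was 99250 to 101600 CPM in coculture and 80770 to 86000 CPM in monoculture. At 72 h it was 155000 to 160500 CPM in coculture and 169400 to 184700 CPM in monoculture. Of the collagen differences, 11 were lower and 3 higher with library sizes alone, and 1 was higher without the libraries rich in ribosomal RNA. COL1A1 rose by 1.78 ± 0.040 in monoculture, a difference of -0.71 ± 0.055 (adjusted p = 8.09e-12). All 13 called differences of the sarcomere list were lower, and with library sizes alone 10 were lower and 1 higher. XIRP1, an actin-binding protein of muscle, had no called net change in coculture (-0.41) and rose in monoculture (1.88), a difference of -2.28 ± 0.29 (adjusted p = 1.08e-07). Without 72 h replicate 3 of the coculture its net change there was called lower (-0.56, adjusted p = 0.0397), and so it was with library sizes alone (-0.52, adjusted p = 0.0318). The YAP and actin list had 23 differences lower and 5 higher. ACTA2 changed by -0.21 ± 0.054 in monoculture, a difference of -1.07 ± 0.077, and HEYL by -0.62 ± 0.080, a difference of -1.08 ± 0.12. DUSP5, a phosphatase of ERK (-3.07 ± 0.40), and HK3 (-2.44 ± 0.17) had the largest lower differences of the genes named. For the ribosomal protein list the direction depended on scaling, with 16 higher and 34 lower after composition scaling and 28 and 10 with library sizes alone.

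**Figure D5:**
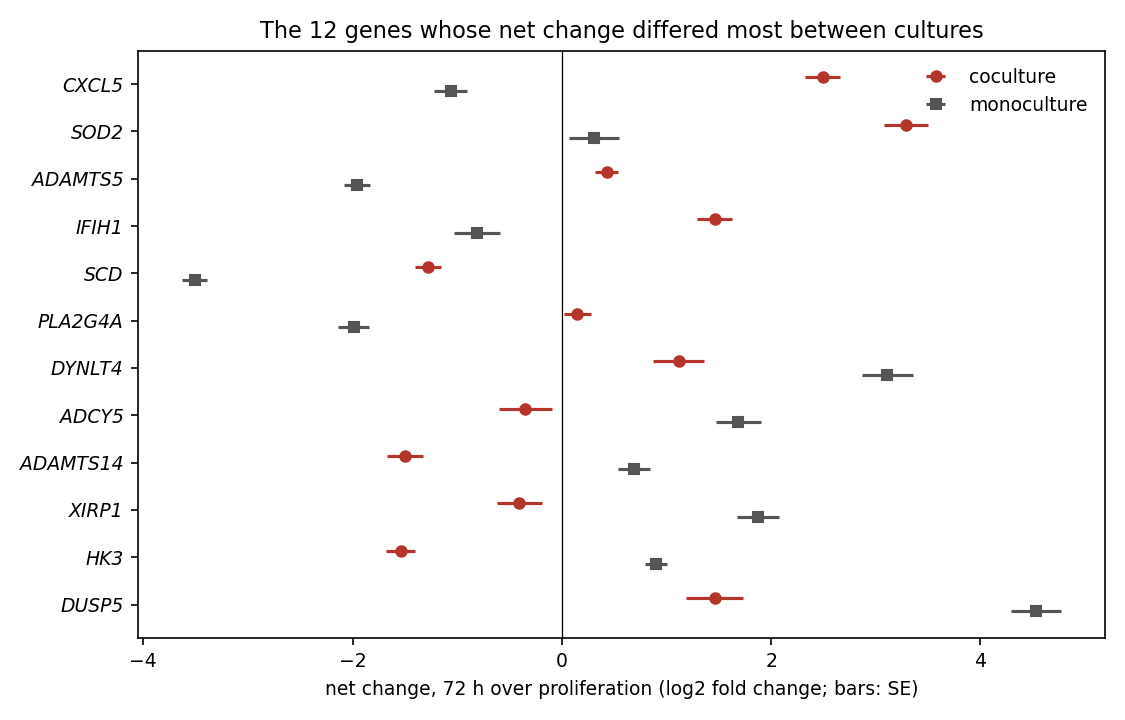
Net change from proliferation to 72 h (log2 fold change, horizontal axis; bars are standard errors) in coculture (circles) and monoculture (squares) for the 12 named genes with the largest called differences, 6 in each direction. CXCL5 and IFIH1 rose in coculture and were lower at 72 h in monoculture, and HK3 and ADAMTS14 did the reverse.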

How the data were processed

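The deposited table holds whole-number counts per gene. The submitters' processing notes name FastQC, STAR, RSEM and DESeq2, with no versions, and per the labels 400 ng of total RNA entered the Vazyme VAHTS Universal V8 kit; the sources used here name no genome build. Whether the authors rounded estimated counts is not stated. The 24 labelled columns were used, and 12 columns without a label were not. Counts were analysed with edgeR 4.0.16 (R 4.3.3; TMM factors, quasi-likelihood test) in one model of 6 groups of 4 libraries with 18 residual degrees of freedom. Its default filter on low counts removed 0 of 11937 genes. Benjamini-Hochberg adjustment ran over all genes in each of the 4 comparisons, with a threshold of 0.05. Within each coculture group, no pair of replicates held identical counts or matched within sampling noise. Pairs of monoculture replicates were not compared in this way. Symbols came from a deposited results table; genes that share a symbol are marked.

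Genes named are the 12 largest rises and falls (symbol of 1 gene only, at least 5 CPM, no overlap), the 5 largest gains and losses in CPM, 6 peaks, 6 dips and 6 differences each way (symbol of 1 gene, at least 5 CPM), up to 4 called members each way per list, and 11 fixed genes. The members and lists were chosen with earlier results of these data known. A planned promoter motif search was not run, since no sequences were given. Alternatives were DESeq2 1.42.0, other scalings and filters, a lane term, a replicate block and left-out libraries. Scripts were tested on simulated data. Figures used matplotlib 3.10.9.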

Additional observations from a re-analysis of the deposited data

Results flagged for a closer look

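In 33 of 591 sets of 4 libraries (1 gene at 1 time in coculture), 1 library stood apart, its gap to the nearest other being a larger part of the group's range than Dixon's critical value at 95% allows. Chance marks about 1 in 20 such sets. The share of the range follows each gene. In proliferation the libraries were as follows. Replicate 1 was the lowest for LIN9 (0.910). Replicate 2 was the highest for NQO1 (0.920) and the lowest for ERAP2 (0.937). Replicate 3 was the highest for EEF1A1 (0.974) and the lowest for MFAP2 (0.880). Replicate 4 was the highest for ADAMTS9 (0.889) and COL8A2 (0.916) and the lowest for CEBPD (0.882), DUSP5 (0.973), SFRP4 (0.960) and XIRP1 (0.960). At 24 h they were as follows. Replicate 1 was the highest for C3 (0.870) and the lowest for ARNTL2 (0.906) and HES4 (0.886). Replicate 2 was the highest for CYCS (0.902), GREM1 (0.950) and IL1RL1 (0.852) and the lowest for COL8A2 (0.875) and IGFBP3 (0.877). Replicate 4 was the lowest for ACTG1 (0.877). At 72 h they were as follows. Replicate 1 was the highest for ADAMTS14 (0.846) and VIM (0.892) and the lowest for TSPAN13 (0.915). Replicate 2 was the highest for TTK (0.941) and the lowest for CALR (0.973), CRYAB (0.885) and FOS (0.965). Replicate 3 was the highest for CDK4 (0.887) and INSIG1 (0.950) and the lowest for FABP3 (0.946), ORC1 (0.897) and ZEB1 (0.879). Replicate 4 was the highest for VCAN (0.902). No library of 72 h stood apart on IL6, CFB or SOD2, whose levels were spread widely over the group.

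The net change was called different between coculture and monoculture (edgeR, adjusted p below 0.05) in 30 of the genes named for their size of change or of difference or as fixed genes. Over all genes tested, 62.3% were called for this difference. Genes named for their difference were picked among called ones, so their call was fixed by that choice. The net change was higher in coculture, on the log2 scale, for CXCL5 (3.56), SOD2 (2.98), ADAMTS5 (2.38), IFIH1 (2.27), SCD (2.23), IL6 (1.65), C3 (1.61), PDGFRA (1.52), SLC1A1 (1.20), TSPAN13 (1.06), MKI67 (1.01) and GIMAP7 (0.77). It was lower in coculture for GPX3 (-0.36), EGR1 (-0.43), GREM1 (-0.61), RFTN1 (-0.66), KANK4 (-0.69), TUBA4A (-0.70), COL1A1 (-0.71), CRYAB (-0.80), ELN (-1.04), AQP1 (-1.16), SKOR1 (-1.25), SEMA5B (-1.26), HDAC9 (-1.91), ADCY5 (-2.04), ADAMTS14 (-2.19), XIRP1 (-2.28), HK3 (-2.44) and DUSP5 (-3.07). With library sizes alone the median difference of all genes was 0.21 higher, and none of the alternatives reversed these 30 differences. The call was lost with the lane term for CRYAB, EGR1, IL6, KANK4 and TUBA4A, with library sizes alone for EGR1, GPX3, KANK4 and TUBA4A, with the libraries rich in ribosomal RNA left out for KANK4 and TUBA4A, with a replicate block for TUBA4A, and with at least 1 single library left out for EGR1, IL6, KANK4 and TUBA4A. Values moved by over 1.5 times for SLC1A1 (1.86) and TSPAN13 (1.69) with the lane term, for EGR1 (-0.23) and GPX3 (-0.16) with library sizes alone, and for CRYAB without 72 h replicate 3 of the monoculture (-0.40) or without the libraries rich in ribosomal RNA (-0.39).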

How the results depend on the processing

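Counts moved by over 1.5 times under a lane term and under library sizes alone. With the lane term the net change had 2145 genes called higher and 2223 lower, and the timing classes held 884 genes in both steps, 1168 early, 86 overshot and 129 turned. The lane term can be fitted only through the 24 h libraries, and of the 7203 called genes 4281 kept call and direction under it. With library sizes alone the first step had 1303 higher and 4710 lower, the net change 2347 higher, the difference of net changes 2075 lower, and the timing classes 696 dips and 257 peaks. The share of called genes that were higher went from 50.3% to 32.4% for the net change and from 50.3% to 71.3% for the difference. The LDHA copy and the RPL35 copy reversed under the lane term, to 0.26 (adjusted p = 0.203) and 0.10 (adjusted p = 0.799); the cause was not tested. Both belong to 18 genes (0.151%) called lower in lane 7 than in lane 6.

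With a replicate block in the model the net change had 3580 genes called higher and 3546 lower. Same-numbered libraries of proliferation and 72 h did not deviate together (correlations of 0.0013, 0.024, -0.0033 and 0.056), so the numbers were not taken as pairs. Leaving out each library, DESeq2, other filters, fewer libraries in the fit, removal of ribosomal and mitochondrial genes and the steps within one lane kept the counts over all genes within 1.5 times. This does not hold for every list. Without the libraries rich in ribosomal RNA, 2 glucocorticoid targets were called lower, against 1. Every listed gene had at least 6 counts, so depth limits chiefly changes of genes near 1 CPM.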
